A study of Mus musculus musculus x Mus musculus castaneus with 7 samples.

Results

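The gene set described here comprised 42 genes of the p53 pathway and the Bcl2 family, matched by symbol in a deposited expression table of 24393 genes. Every one of the 42 symbols was present. By role they were the 3 genes of the p53 family, 2 inhibitors of p53, 17 p53 targets, 5 pro-survival and 11 pro-death members of the Bcl2 family, Bcl2l14, and 3 genes of the caspase cascade. Bcl2l14 was placed with neither the pro-survival nor the pro-death genes.

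The study followed female mouse cells of a Mus musculus musculus x Mus musculus castaneus cross from embryonic fibroblasts to induced pluripotent stem cells (iPSCs), and RNA sequencing was done on 7 libraries, 1 per group. Per the labels, fibroblasts received a lentiviral doxycycline-inducible cassette of Oct4, Sox2, Klf4 and cMyc with another virus for the M2rtTA activator. They were sorted by whether the X-GFP reporter lay on the active or the inactive X chromosome. Doxycycline (2 µg/ml) and ascorbic acid (50 µg/ml) in serum medium with LIF then started reprogramming and were kept on throughout. The groups were an intermediate of Day 2, for which no surface-marker sort is named, intermediates of Days 8, 10, 13 and 15 sorted for the surface glycan SSEA1, iPSCs sorted for SSEA1 and GFP, and embryonic stem cells (ESCs, described as F121) sorted for both. The iPSCs were derived from picked colonies after doxycycline and ascorbic acid were withdrawn, and RNA of all samples was extracted together. With 1 library per group there was no spread between replicates, no test was possible, and every difference below is between libraries. Day 2 and the later days differ both in time and in the SSEA1 sort, and these cannot be told apart.

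The transcription factor p53 is stabilised by DNA damage and other stress and switches on genes for growth arrest, repair and cell death, among them Mdm2, whose product marks p53 for degradation. Apoptosis through mitochondria is set by the Bcl2 family, whose pore-forming effectors are Bax, Bak1 and Bok. Pro-survival members hold back Bax and Bak1 but restrain Bok little, and BH3-only members neutralise the pro-survival proteins or activate the effectors. Released cytochrome c then joins Apaf1 to activate caspase 9, while death receptors such as Fas act through caspase 8. In mouse fibroblasts p53 is known as a barrier to reprogramming by these factors, and embryonic stem cells are known for high p53 protein and a low threshold for apoptosis.

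The feature that joins the pro-survival and pro-death members is the BH3 segment, the helix by which pro-death members bind pro-survival proteins. Its coding stretches are shown to let the members be compared directly. Each stretch is read 5′ to 3′ from the coding sequence of the gene's longest coding transcript in GENCODE M21 (GRCm38). Capitals mark a leucine codon and, after 3 further codons, a glycine, alanine or serine codon followed by an aspartate codon. The pro-survival genes Bcl2, Bcl2l1 (Bcl-xL) and Mcl1 are followed by the effectors Bax and Bok and by the BH3-only genes Bad, Bmf, Bbc3 (Puma) and Bcl2l11 (Bim).
Bcl2: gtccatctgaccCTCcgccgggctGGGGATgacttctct
Bcl2l1: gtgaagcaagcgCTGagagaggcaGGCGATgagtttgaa
Mcl1: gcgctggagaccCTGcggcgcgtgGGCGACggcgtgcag
Bax: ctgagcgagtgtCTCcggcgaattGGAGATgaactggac
Bok: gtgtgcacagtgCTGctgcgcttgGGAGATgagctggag
Bad: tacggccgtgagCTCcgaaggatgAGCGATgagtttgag
Bmf: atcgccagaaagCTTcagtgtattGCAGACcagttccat
Bbc3: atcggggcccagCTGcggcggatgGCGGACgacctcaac
Bcl2l11: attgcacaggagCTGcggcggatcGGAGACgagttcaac
A stretch of this form was encoded in 15 of the 17 Bcl2 family genes, Bcl2l14 included, with a single match in 14 of them. It was encoded in 34.0% of all 21559 protein-coding genes, so the pattern alone does not identify a BH3 segment. The 2 genes without a match were the pro-survival genes Bcl2l2 and Bcl2a1b, which does not show that they lack a BH3 segment.

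The deposited values are log2 of normalized counts plus 1. Libraries held between 15370903 reads (iPSCs) and 57021069 reads (Day 15), and a single read was worth between 0.581 (Day 15) and 2.34 (iPSCs) normalized counts. Of the 12 fibroblast markers all had reads at Day 2, with a summed 844557 normalized counts against 1598 in iPSCs, and of 10 pluripotency markers 1 had reads at Day 2 and all 10 in the other 6 libraries. Pou5f1 and Sox2, both among the induced factors, had 0 reads at Day 2. The markers of proliferation summed to 47305 normalized counts at Day 2 and 135680 in iPSCs. Some well-expressed genes were missing from single libraries: of genes whose lowest value elsewhere was 128 normalized counts or more, 2.23% lacked reads at Day 2 and 3.83% at Day 8, against at most 0.116% in the other 5. Among the members these were Bmf at Day 2 and Sesn1 at Day 8, so a 0 in these libraries says less than a 0 elsewhere.

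**Figure D1:**
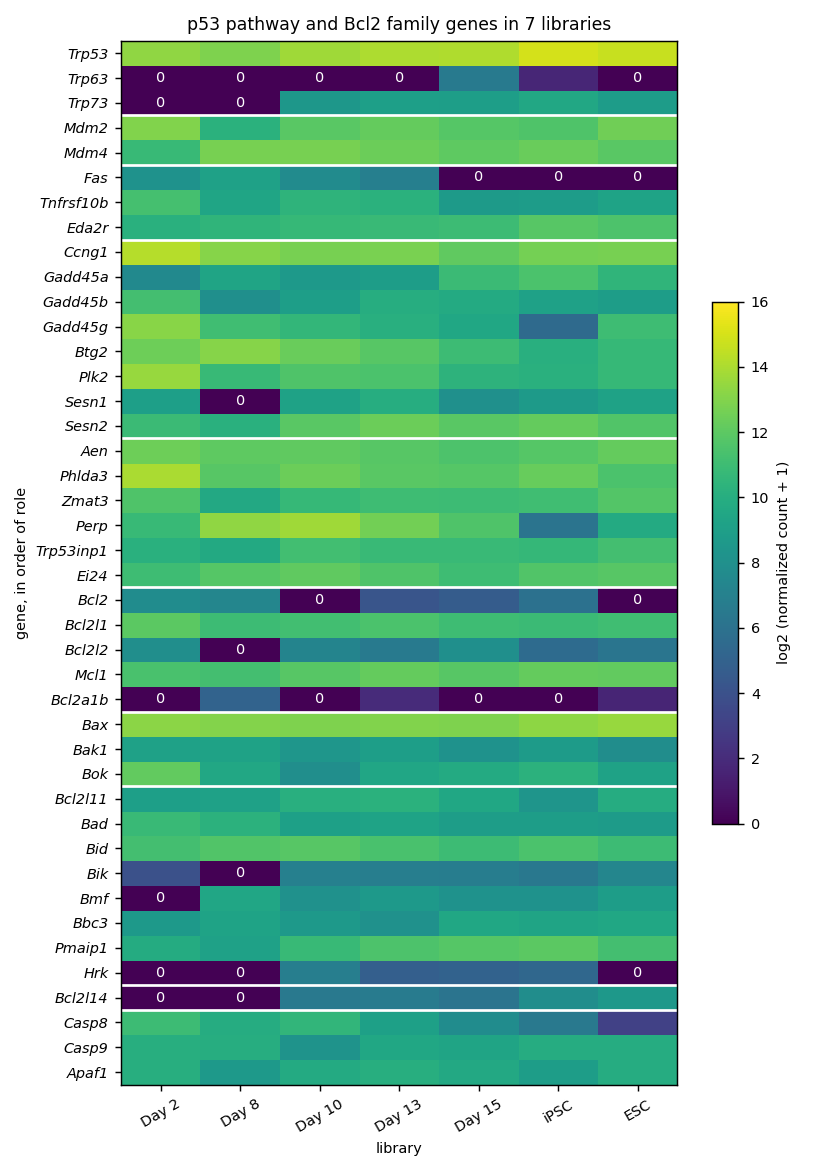
Expression of the 42 genes (rows, in order of role, white lines between roles) in each of the 7 libraries (columns), as log2 of normalized counts plus 1 in colour. A white 0 marks a gene with no read. Trp53, Bax and Ccng1 stayed bright in every library, whereas Fas went to 0 at Day 15 and Casp8 darkened from Day 2 to ESCs.

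A gene was compared between libraries if the higher one reached 6 on the log2 scale (63 normalized counts), and differences of 2-fold or more were counted, with the share of all genes that passed the same line as the background. From Day 2 to Day 8, 4 of 36 members compared were higher (11.1%, background 26.3%) and 13 lower (36.1%, background 31.8%). Scaled by total reads instead, 8 were higher and 10 lower, since that scaling moves this comparison upward by 0.42 on the log2 scale. Backgrounds were not recomputed for other scalings, filters or read requirements, here and below. From Day 8 to Day 10, 12 of 40 members compared were higher (30%, background 27.7%) and 6 lower (15%, background 18.8%). With reads required in both libraries, 6 were higher and 5 lower. The downward share of the first step and the upward share of the next both lay near their backgrounds.

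Later steps moved fewer members. From Day 10 to Day 13, 3 of 39 members compared were higher (7.69%, background 15.7%) and 3 lower (7.69%, background 9.51%). From Day 13 to Day 15, 4 of 39 members compared were higher (10.3%, background 14.6%) and 6 lower (15.4%, background 13.1%), or 4 and 4 when scaled by total reads without the mitochondrial genome. From Day 15 to iPSCs, 1 of 38 members compared was higher (2.63%, background 7.83%) and 6 lower (15.8%, background 22.1%). With ESCs in place of iPSCs, 3 of 38 members compared were higher (7.89%, background 11.3%) and 4 lower (10.5%, background 23.8%). From iPSCs to ESCs, 3 of 37 members compared were higher (8.11%, background 14.5%) and 3 lower (8.11%, background 13.7%). Scaled without the mitochondrial genome, the last counts were 6 higher and 1 lower.

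Over the whole course, from Day 2 to iPSCs, 10 of 39 members compared were higher (25.6%, background 28.7%) and 17 lower (43.6%, background 29.8%). Their median difference was -0.52 on the log2 scale, against 0.02 for all genes compared. From Day 2 to Day 15, 8 of 40 members compared were higher (20%, background 29.7%) and 14 lower (35%, background 23.1%). From Day 2 to ESCs, 10 of 39 members compared were higher (25.6%, background 29.1%) and 14 lower (35.9%, background 29.8%). All 3 comparisons share the Day 2 library. With Day 8 as the start in place of Day 2, 13 members were higher in iPSCs and 8 lower. The share of all genes was not computed for that pair, so these counts have no background. Across all 7 libraries only Bax, Bid and Aen stayed within 2-fold from lowest to highest (3 of 41 members, 7.32%, against 9.64% of all genes).

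**Figure D2:**
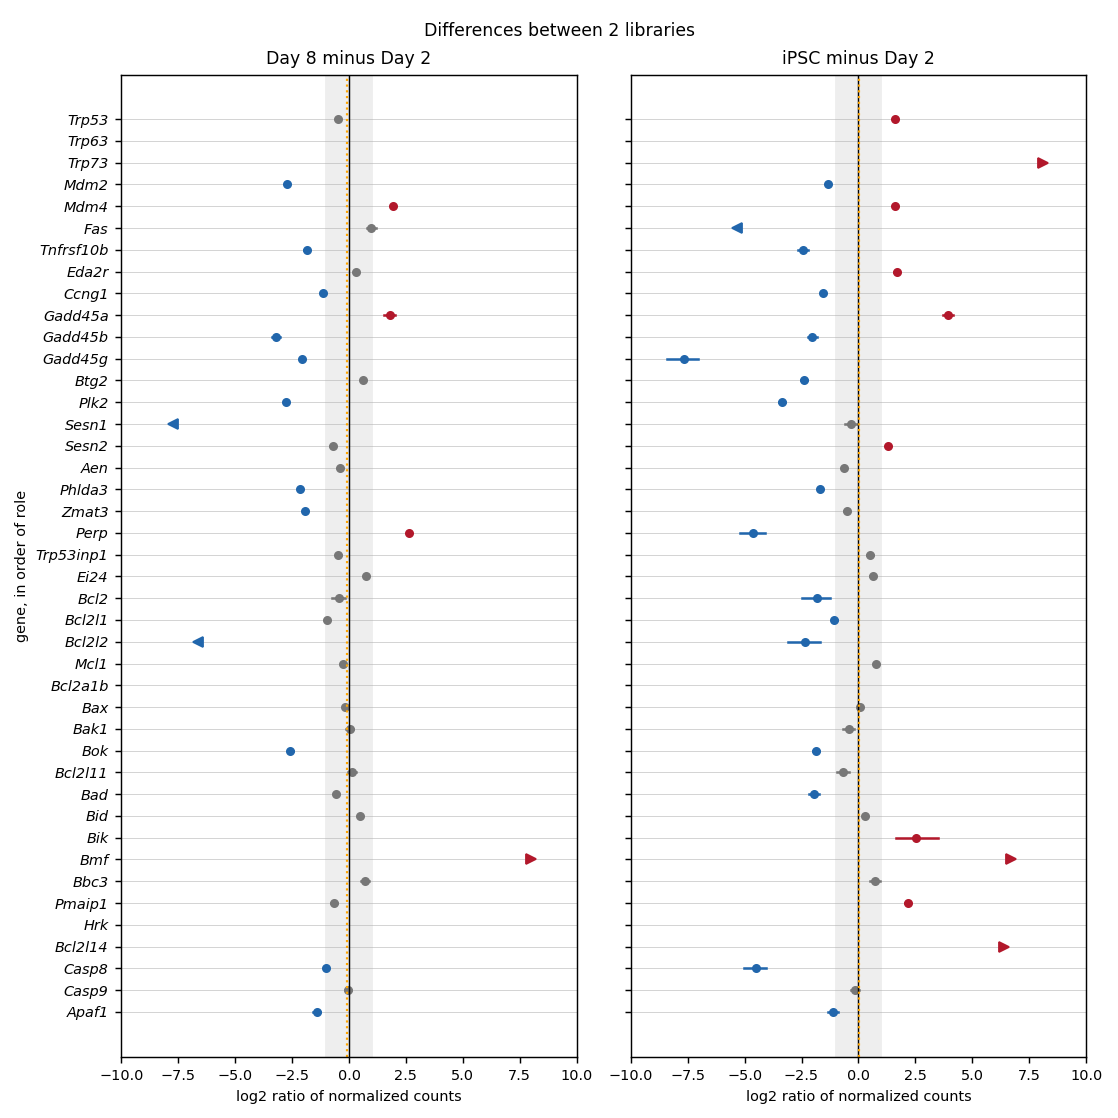
Log2 ratio of normalized counts for each gene that could be compared (rows, in order of role), Day 8 against Day 2 on the left and iPSCs against Day 2 on the right. Points are ratios with 95% Clopper-Pearson counting intervals, triangles are bounds where one library had 0 reads (set at 3 reads), red is higher, blue lower and grey within 2-fold (shaded), and the dotted line is the median of all genes compared. Most blue points lie among the p53 targets, which are 17 of the 36 members compared on the left and 17 of the 39 on the right. Gadd45g in iPSCs lies furthest to the left of the ratios, and the triangle of Sesn1 at Day 8 lies slightly further left.

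Transcripts of Trp53 and Trp73 were lowest at Days 2 and 8 and highest in iPSCs. Trp53, which encodes p53 (GRCm38 chromosome 11, 69580359 to 69591873), stood at 10572 normalized counts on Day 2, 7547 on Day 8, 13568 on Day 10, 16411 on Day 13, 17756 on Day 15, 31746 in iPSCs and 25943 in ESCs. The iPSC and ESC libraries lay above all intermediates. Trp53 was 3.0-fold higher (2.93 to 3.08) in iPSCs than at Day 2 (95% counting interval in parentheses, here and below; it covers counting error only). ESCs lay within 2-fold of iPSCs.

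Trp73, the p53 relative p73, had 0 reads at Days 2 and 8 and 451 reads at Day 10. From Day 10 on it had 350.3, 521 and 510.3 normalized counts in the intermediates, 761 in iPSCs and 456 in ESCs. By counting error alone, it was at least 143-fold higher at Day 10 than at Day 8 and at least 278-fold higher in iPSCs than at Day 2. Its values of 0 at Days 2 and 8 fall in the libraries that lacked reads of other well-expressed genes. Trp63, the relative that specifies basal epithelium and epidermis, was seen almost only at Day 15, with 155 reads against 1 in iPSCs and 0 in each of the other 5 libraries. The epidermal keratin Krt14 moved otherwise, with 17.4 normalized counts on Day 2, 858 on Day 8, 1515 on Day 10, 2497 on Day 13, 1642 on Day 15, 0 in iPSCs and 0 in ESCs, so it was present at Days 8 to 13 where Trp63 had no read.

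The inhibitors of p53 went in opposite directions. Mdm2, the ubiquitin ligase of p53 and itself a p53 target (GRCm38 chromosome 10, 117688875 to 117710758), stood at 7901 normalized counts on Day 2, 1189.8 on Day 8, 3776 on Day 10, 4673 on Day 13, 3589 on Day 15, 3099.6 in iPSCs and 5947 in ESCs. Day 2 was its highest library and Day 8 its lowest, 6.64-fold lower (6.28 to 7.02) than Day 2, with Day 10 again 3.17-fold higher (2.99 to 3.37) than Day 8. Mdm4, a relative that masks the activation domain of p53, stood at 1764 normalized counts on Day 2, 6798 on Day 8, 6725 on Day 10, 5451 on Day 13, 4219.8 on Day 15, 5309 in iPSCs and 3917 in ESCs.

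Mdm4 was lowest at Day 2 and above that level in all later libraries, 3.85-fold higher (3.67 to 4.05) at Day 8 and 3.01-fold higher (2.83 to 3.20) in iPSCs. The ratio of Trp53 to Mdm2 normalized counts, which compares each library with the others and not the levels of the genes, was 1.34 at Day 2, between 3.51 (Day 13) and 6.34 (Day 8) in the sorted intermediates, 10.2 in iPSCs and 4.36 in ESCs. iPSCs and ESCs thus lay on either side of the Day 8 value.

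Among the 17 members grouped as p53 targets, lower ones outnumbered higher ones against Day 2. Mdm2, Pmaip1 and Bbc3, also p53 targets, were counted under other roles. From Day 2 to iPSCs, Mdm2 was lower by 2-fold, Pmaip1 higher by 2-fold and Bbc3 within 2-fold, so the balance depends on the grouping. At Day 8, 8 were lower and 2 higher of 17 compared (median -0.72 on the log2 scale, -0.11 for all genes), against a background of 26.3% higher and 31.8% lower. Under either scaling by total reads, Fas, Btg2 and Ei24 were also higher at Day 8 and Ccng1 was no longer lower. In iPSCs 9 were lower and 3 higher (median -1.56, 0.02 for all genes; background 28.7% higher and 29.8% lower). In ESCs against Day 2, 8 were lower and 3 higher (median -1.0, 0.03 for all genes), with a background of 29.1% higher and 29.8% lower. From Day 8 to Day 10, 4 of 17 were higher (23.5%, background 27.7%) and 1 lower (5.88%, background 18.8%), with a median of 0.34. The upward share thus lay below its background, and Sesn1, 1 of these 4, had 0 reads at Day 8. The 12 fibroblast markers summed to 844557 normalized counts on Day 2, 75782 on Day 8, 5964 on Day 10, 24777 on Day 13, 68607 on Day 15, 1598 in iPSCs and 2993 in ESCs. That sum was highest at Day 2, where Col1a1 alone gave 505292 of it. At Day 8, 10 of the 12 markers were lower by 2-fold than at Day 2, and Lum was higher. The part of fibroblast content in the counts of targets was not tested. From Day 13 to Day 15, 5 of the 17 targets were lower and 1 higher (median -0.56, background 13.1% lower and 14.6% higher).

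Of the 3 death receptors, Fas had no reads from Day 15 on, Tnfrsf10b was lower and Eda2r higher. Fas (GRCm38 chromosome 19, 34290666 to 34327772), whose ligand triggers apoptosis through caspase 8, had 283 normalized counts on Day 2, 557 on Day 8, 210.5 on Day 10, 121.1 on Day 13, 0 on Day 15, 0 in iPSCs and 0 in ESCs. It was 2.65-fold lower (2.30 to 3.06) at Day 10 than at Day 8 and at least 69.5-fold lower at Day 15 than at Day 13. The 0 reads at Day 15, in iPSCs and in ESCs allow up to 1.74, 7.03 and 3.24 normalized counts (3 reads).

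Tnfrsf10b, the only mouse receptor of this kind for the death ligand TRAIL, stood at 2506 normalized counts on Day 2, 691 on Day 8, 1368 on Day 10, 1185 on Day 13, 428 on Day 15, 466 in iPSCs and 614 in ESCs. Day 2 lay above every other library, and iPSCs were 5.37-fold lower (4.65 to 6.24) than Day 2. Eda2r, an X-linked receptor of the ectodysplasin EDA-A2 (GRCm38 chromosome X, 97333840 to 97377216), stood at 1161 normalized counts on Day 2, 1439 on Day 8, 1720.2 on Day 10, 1825 on Day 13, 2005 on Day 15, 3718 in iPSCs and 2979.6 in ESCs. Its values stepped up from each intermediate to the next, and iPSCs were 3.20-fold higher (2.97 to 3.45) than Day 2.

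The 8 targets that act in growth arrest and stress included the largest fold decrease from Day 2 to iPSCs among the members. Gadd45g, a stress gene that binds Cdk1 and p38 pathway kinases, stood at 9138 normalized counts on Day 2, 2190.2 on Day 8, 1556 on Day 10, 1087 on Day 13, 732 on Day 15, 44.5 in iPSCs and 2129 in ESCs. It declined at each step from Day 2 to iPSCs, where 19 reads remained, 205-fold lower (131 to 341) than at Day 2. ESCs did not share that low level and were 47.8-fold higher (30.5 to 79.6) than iPSCs, the largest difference between these libraries among the members with reads in both.

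The other 2 Gadd45 genes took other courses. Gadd45a stood at 189 normalized counts on Day 2, 649.6 on Day 8, 393 on Day 10, 479 on Day 13, 1899 on Day 15, 2875 in iPSCs and 1389 in ESCs, lowest at Day 2 and highest in iPSCs, which were 15.2-fold higher (13.1 to 17.7) than Day 2. It was 3.97-fold higher (3.61 to 4.37) at Day 15 than at Day 13 and 2.07-fold lower (1.91 to 2.24) in ESCs than in iPSCs. Part of its annotated exon sequence (19.1%) is overlapped by E230016M11Rik on the opposite strand, and the library kit does not mark strand. Gadd45b was 9.33-fold lower (8.29 to 10.5) at Day 8 than at Day 2 and had partly returned by Day 13, 2.05-fold higher (1.85 to 2.26) than Day 10.

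**Figure D3:**
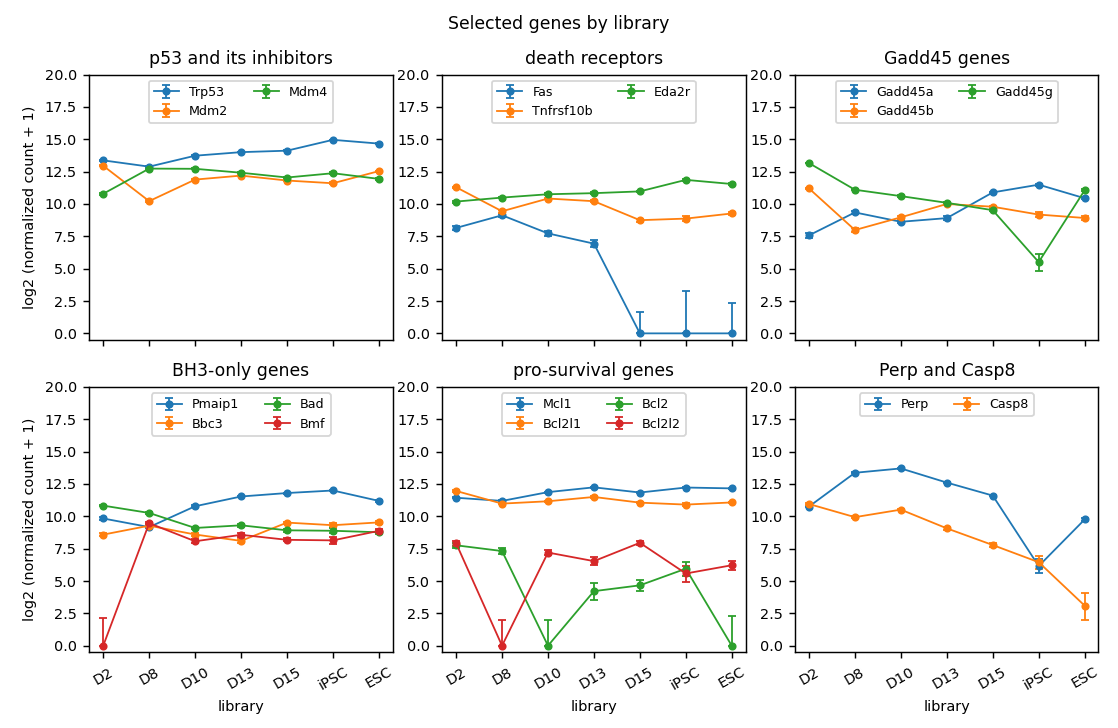
Log2 of normalized counts plus 1 (vertical axis) in the 7 libraries (D2 to D15 for Days 2 to 15) for selected genes, with 95% Poisson intervals of the read counts. Gadd45g and Perp dip in iPSCs, Fas reaches 0 from Day 15, and Trp53 ends above its Day 2 level while Mdm2 does not.

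Plk2, a polo-like kinase, stood at 11773 normalized counts on Day 2, 1741 on Day 8, 3080.1 on Day 10, 2777 on Day 13, 1324 on Day 15, 1150.3 in iPSCs and 1649.7 in ESCs. Day 2 was higher than every other library, 6.76-fold above Day 8 (6.46 to 7.08), and iPSCs were 10.2-fold lower (9.35 to 11.2) than Day 2. Ccng1 encodes cyclin G1, which recruits a phosphatase to Mdm2, and stood at 19109.8 normalized counts on Day 2, 8610.0 on Day 8, 6747 on Day 10, 7179.8 on Day 13, 4339 on Day 15, 6466 in iPSCs and 6766 in ESCs. iPSCs were 2.96-fold lower (2.84 to 3.08) than Day 2.

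Btg2, an antiproliferative cofactor of mRNA deadenylation, was highest at Day 8 and not at Day 2. It stood at 5643 normalized counts on Day 2, 8662 on Day 8, 5090.0 on Day 10, 3746 on Day 13, 1992 on Day 15, 1087 in iPSCs and 1685 in ESCs, and from Day 8 to iPSCs each library lay below the one before. iPSCs were 5.19-fold lower (4.72 to 5.72) than Day 2. The sestrins restrain the growth kinase mTORC1. Sesn2 stood at 1918 normalized counts on Day 2, 1163 on Day 8, 3883 on Day 10, 5509 on Day 13, 3813 on Day 15, 4763 in iPSCs and 3284 in ESCs, 3.34-fold higher (3.15 to 3.54) at Day 10 than at Day 8 and 2.48-fold higher (2.34 to 2.64) in iPSCs than at Day 2. Sesn1 had 0 reads at Day 8 and between 262 (Day 15) and 1001 (Day 13) normalized counts in the other 6 libraries, and the 0 falls in a library that lacked reads of other well-expressed genes. Day 15 was 3.82-fold lower (3.41 to 4.27) than Day 13.

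The remaining 6 targets ran from the flat Aen to Perp, one of the most variable members. Perp, a membrane protein of desmosomes in stratified epithelia (GRCm38 chromosome 10, 18845020 to 18857073), stood at 1722 normalized counts on Day 2, 10537 on Day 8, 13301 on Day 10, 6230.5 on Day 13, 3104 on Day 15, 70.3 in iPSCs and 862 in ESCs. It was 6.12-fold higher (5.83 to 6.42) at Day 8 than at Day 2, peaked at Day 10 and then declined at each step, to 30 reads in iPSCs, 44.2-fold lower (30.9 to 65.5) than Day 15. ESCs were 12.3-fold higher (8.52 to 18.3) than iPSCs.

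Over the same libraries the 10 epithelial and epidermal markers in the table summed to 133 normalized counts on Day 2, 164538 on Day 8, 149111 on Day 10, 106407 on Day 13, 77246 on Day 15, 13385 in iPSCs and 26577 in ESCs. At Day 2, 4 of the 10 had reads, and Perp stood at 1722 normalized counts. The part of epithelial cell content in the course of Perp was not tested. In bulk samples, fewer cells of a type and less RNA per cell cannot be told apart.

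Phlda3, an inhibitor of the survival kinase Akt, stood at 15901 normalized counts on Day 2, 3598 on Day 8, 5350.2 on Day 10, 3801 on Day 13, 3475 on Day 15, 4904 in iPSCs and 2859.7 in ESCs. Day 2 was far above the other libraries, 3.24-fold above iPSCs (3.10 to 3.39). Zmat3, an RNA-binding regulator of splicing, was 3.83-fold lower (3.57 to 4.11) at Day 8 than at Day 2 but back at 3369.6 normalized counts in ESCs, against 3136 at Day 2. Trp53inp1, a stress protein of autophagy, was lowest at Day 8 (836) and 2.74-fold higher (2.55 to 2.95) at Day 10. The nuclease gene Aen ranged from 3016 (Day 15) to 5594 (Day 2), and the endoplasmic reticulum gene Ei24 from 2096 (Day 2) to 4355 (Day 10). For Ei24, Day 8 passes 2-fold over Day 2 under either scaling by total reads.

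A list of 22 other p53 targets gave a mixed picture beside the members. All 21 in the table could be compared over the whole course, with 8 lower and 3 higher, against a background of 29.8% and 28.7%, although their median difference was above 0 (median 0.12, 0.02 for all genes). Cdkn1a, the cell-cycle inhibitor p21, stood at 27720.2 normalized counts on Day 2, 14809 on Day 8, 11524 on Day 10, 10808 on Day 13, 5422 on Day 15, 5384 in iPSCs and 5623 in ESCs and was 5.15-fold lower (4.93 to 5.37) in iPSCs than at Day 2. Its values declined from Day 2 to Day 15, and the last 3 libraries were alike.

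The matrix gene Thbs1, also abundant in fibroblasts, was 2230.2-fold lower (1725 to 2937) in iPSCs, where it had 58 reads. Dram1, a lysosomal protein of autophagy, had 0 reads in iPSCs and was at least 132-fold lower. Tigar, a phosphatase that slows glycolysis, went the other way and was 7.74-fold higher (7.10 to 8.44). Of 21 regulators of p53 in the table, 8 were past 2-fold upward from Day 2 to iPSCs and 3 downward (median 0.88), against a background of 28.7% and 29.8%. The checkpoint kinase genes Chek1 and Chek2 were 5.06-fold higher (4.61 to 5.56) and 5.71-fold higher (5.13 to 6.37), and Usp7, which removes ubiquitin from p53 and Mdm2, was 11.8-fold higher (11.0 to 12.6). Cdkn2a, whose Arf product blocks Mdm2, was 14.7-fold lower (8.85 to 26.5), and the p53 kinase gene Hipk2 was 7.04-fold lower (5.95 to 8.39).

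Among the 5 pro-survival genes, Mcl1 and Bcl2l1 made up nearly all of the transcript amount in each library, and of the 4 compared from Day 2 to iPSCs, 3 were lower by 2-fold (Bcl2, Bcl2l1 and Bcl2l2) and none was higher by 2-fold (background 29.8% lower and 28.7% higher). Mcl1 encodes a short-lived guardian of Bak1 and stood at 2767 normalized counts on Day 2, 2335 on Day 8, 3737 on Day 10, 4831 on Day 13, 3660.2 on Day 15, 4782 in iPSCs and 4569.9 in ESCs. iPSCs were 1.73-fold higher (1.63 to 1.83) than Day 2, which passes 2-fold under either scaling by total reads. Bcl2l1 (Bcl-xL) stood at 3979.8 normalized counts on Day 2, 2019.7 on Day 8, 2291 on Day 10, 2885 on Day 13, 2128 on Day 15, 1916 in iPSCs and 2151 in ESCs. It was highest at Day 2 and 2.08-fold lower (1.93 to 2.24) in iPSCs, a difference near the 2-fold line that no longer passes it when libraries are scaled by total reads.

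Bcl2, the founding member of the family, was never abundant and stood at 216 normalized counts on Day 2, 158 on Day 8, 0 on Day 10, 17.6 on Day 13, 24.4 on Day 15, 60.9 in iPSCs and 0 in ESCs. It was at least 67.9-fold lower at Day 10 than at Day 8 and 3.54-fold lower (2.36 to 5.54) in iPSCs than at Day 2, with 26 reads in iPSCs and 0 in ESCs. Bcl2l2 (Bcl-w) had 0 reads at Day 8, and elsewhere it lay between 46.9 (iPSCs) and 247 (Day 15) normalized counts. Gm20521, on the same strand, covers 13.3% of its exon sequence. It was 2.69-fold higher (2.14 to 3.40) at Day 15 than at Day 13 and then 5.27-fold lower (3.37 to 8.71) in iPSCs than at Day 15.

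Bcl2a1b, a pro-survival gene of blood cells, reached 6 on the log2 scale in no library and was the only one of the 42 that could not be compared anywhere. It had 40 reads at Day 8, 3 at Day 13, 2 in ESCs and 0 elsewhere. Its copies Bcl2a1a and Bcl2a1d had 277 and 168 reads at Day 8 and at most 3 in any other library. Of the 50-base windows of the Bcl2a1b transcript, 57.5% also occur in the transcripts of these copies, so the split of reads between the copies is uncertain, and Gm29094 covers 49.1% of its exon sequence on the same strand. The 14 blood and macrophage markers summed to 651 normalized counts on Day 2, 51509.6 on Day 8, 2943 on Day 10, 43428 on Day 13, 4910.1 on Day 15, 8301 in iPSCs and 5513 in ESCs, high at Days 8 and 13. All 14 had reads at Days 8, 13 and 15 and in iPSCs, and 5 of 14 at Day 2. At Day 13 the 3 copies together had 6 reads. The part of blood cells in the values of the 3 copies was not tested.

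Levels of different genes were compared per kilobase of annotated exon, within a library. Mcl1 took 46.1% on Day 2, 57.9% on Day 8, 67.3% on Day 10, 68.3% on Day 13, 67.2% on Day 15, 76.3% in iPSCs and 73.3% in ESCs of the summed pro-survival amount. Bcl2l1 took 49.4% on Day 2, 37.3% on Day 8, 30.7% on Day 10, 30.4% on Day 13, 29.1% on Day 15, 22.8% in iPSCs and 25.7% in ESCs. The order of the pair turned over: Bcl2l1 was slightly ahead at Day 2, and Mcl1 was ahead in the other 6 libraries. The summed pro-survival amount itself ranged from 1181 (Day 8) to 2069 (Day 13) normalized counts per kilobase.

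**Figure D4:**
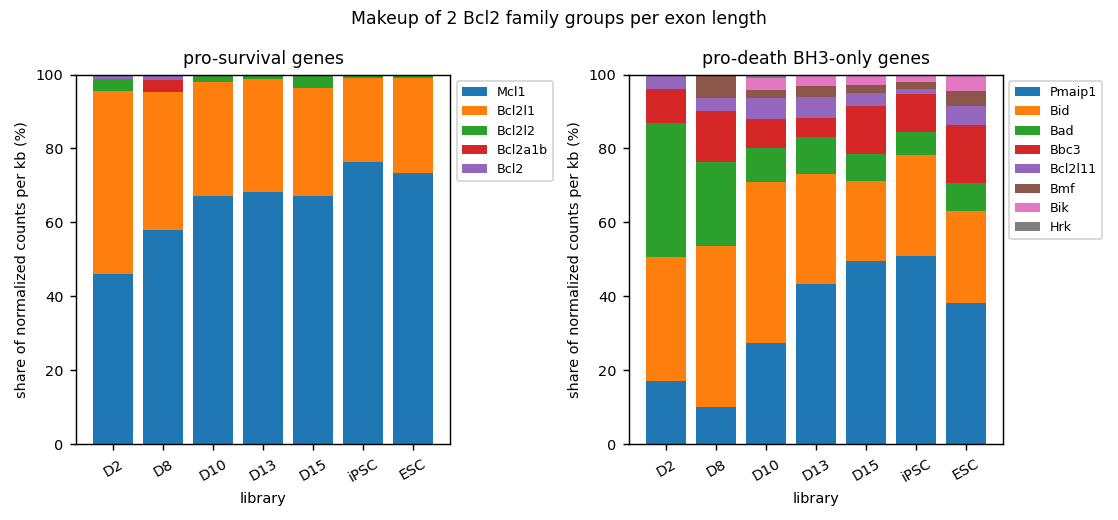
Share of each gene in the summed normalized counts per kilobase of exon (vertical axis, percent), for the pro-survival genes on the left and the BH3-only genes on the right, in the 7 libraries (D2 to D15 for Days 2 to 15). Mcl1 widens from Day 2 to iPSCs while Bcl2l1 narrows, and Pmaip1 widens from Day 8 to iPSCs while Bad narrows.

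The 3 effectors behaved differently from one another. Bax (BH3 stretch above) stood at 9639 normalized counts on Day 2, 8461 on Day 8, 7724 on Day 10, 8063 on Day 13, 7625 on Day 15, 9997 in iPSCs and 11597 in ESCs, and no library was more than 2-fold from another. It held between 56.8% (Day 2) and 73.5% (ESCs) of the summed pro-death amount per kilobase. A gene annotated on the same strand, Gm45808, covers 12.2% of its exon sequence.

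Bok, an effector that the pro-survival proteins restrain little, stood at 4508 normalized counts on Day 2, 756 on Day 8, 238 on Day 10, 692 on Day 13, 894 on Day 15, 1237 in iPSCs and 588 in ESCs. Day 2 was by far the highest and Day 10 the lowest. Day 8 was 5.97-fold lower (5.56 to 6.41) than Day 2, Day 10 3.17-fold lower (2.78 to 3.62) than Day 8, and Day 13 2.90-fold higher (2.54 to 3.33) than Day 10. ESCs were 2.10-fold lower (1.86 to 2.38) than iPSCs. Bak1 ranged from 233 (ESCs) to 593 (Day 8) normalized counts. It was 2.49-fold lower (2.13 to 2.92) in ESCs than at Day 2 and 2.08-fold lower (1.85 to 2.35) at Day 15 than at Day 2, while iPSCs lay within 2-fold of Day 2. Reads of Bak1 may include those of Ggnbp1, which overlaps 25.5% of its exon sequence on the opposite strand.

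The 8 BH3-only genes moved in both directions. Of the 7 that could be compared between iPSCs and Day 2, 3 were higher (Bik, Bmf and Pmaip1) and 1 lower (Bad), with a median of 0.73 on the log2 scale against 0.02 for all genes and a background of 28.7% higher and 29.8% lower. Pmaip1 (Noxa), a p53 target that binds Mcl1 (GRCm38 chromosome 18, 66458533 to 66465565), stood at 911 normalized counts on Day 2, 574 on Day 8, 1753 on Day 10, 2957 on Day 13, 3560.3 on Day 15, 4079 in iPSCs and 2335 in ESCs. From Day 8 to iPSCs each library lay above the one before, with Day 10 3.06-fold higher (2.81 to 3.33) than Day 8 and iPSCs 4.48-fold higher (4.14 to 4.85) than Day 2.

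Per kilobase, Pmaip1 made up 17% on Day 2, 10.0% on Day 8, 27.3% on Day 10, 43.2% on Day 13, 49.7% on Day 15, 50.9% in iPSCs and 38.2% in ESCs of the BH3-only amount. Bad, which is held inactive by survival-factor kinases, took 36.2% on Day 2, 22.8% on Day 8, 9.11% on Day 10, 9.85% on Day 13, 7.19% on Day 15, 6.28% in iPSCs and 7.58% in ESCs. Pmaip1 thus passed Bad at Day 10 and stayed ahead. Before length was taken into account, Bad stood at 1814 normalized counts on Day 2, 1224 on Day 8, 548 on Day 10, 631 on Day 13, 482 on Day 15, 471 in iPSCs and 434 in ESCs, and iPSCs were 3.85-fold lower (3.33 to 4.48) than Day 2. Gpr137 overlaps 20.5% of its exon sequence on the opposite strand.

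Bmf, which responds to loss of anchorage, had 0 reads at Day 2 and 866 at Day 8, at least 258-fold higher by counting error alone. The 0 falls in a library that lacked reads of other well-expressed genes, and the higher call of Bmf in iPSCs rests on the same 0. Afterwards it ranged from 268 (Day 10) to 469 (ESCs) normalized counts, with Day 10 2.64-fold lower (2.33 to 3.0) than Day 8. Bbc3 (Puma), a p53 target that binds all main pro-survival proteins, stood at 383 normalized counts on Day 2, 619 on Day 8, 385 on Day 10, 273 on Day 13, 730.3 on Day 15, 635 in iPSCs and 738 in ESCs. It was 1.66-fold higher (1.42 to 1.94) in iPSCs than at Day 2 and 1.61-fold higher (1.43 to 1.82) at Day 8, and under either scaling by total reads both pass 2-fold. Day 15 was 2.67-fold higher (2.34 to 3.05) than Day 13.

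Bcl2l11 (Bim) stood at 525 normalized counts on Day 2, 577 on Day 8, 1078 on Day 10, 1175 on Day 13, 748 on Day 15, 328 in iPSCs and 945 in ESCs, with iPSCs the lowest. iPSCs were 2.28-fold lower (1.91 to 2.73) than Day 15, and ESCs were 2.88-fold higher (2.41 to 3.47) than iPSCs. Bid, which caspase 8 cleaves to link death receptors to mitochondria, ranged from 1990.0 (ESCs) to 3649 (Day 10) and stayed within 2-fold across all 7 libraries. Bcl2l13 overlaps 17.7% of its exon sequence on the opposite strand.

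Bik and Hrk were low in every library. Bik had 16 reads at Day 2, 0 at Day 8 and between 84.3 (iPSCs) and 159.9 (ESCs) normalized counts afterwards. Hrk, best known from dying neurons, had 0 reads at Days 2 and 8 and in ESCs, and 148 reads at Day 10, from which Day 13 was 4.20-fold lower (2.79 to 6.54). Bcl2l14, of which 14.1% of the exon sequence is overlapped by 4933406J09Rik on the opposite strand, likewise had 0 reads at Days 2 and 8. It then stood at 86.2, 102 and 71.4 normalized counts at Days 10, 13 and 15, 229.6 in iPSCs and 373 in ESCs, and was the 1 member past 2-fold upward from Day 15 to iPSCs, 3.22-fold higher (2.44 to 4.23). Of the 7 members with no read at Day 8, 6 (Trp73, Sesn1, Bcl2l2, Bik, Hrk and Bcl2l14) were at least 35.2-fold higher at Day 10, and the 7th was Trp63. Picked for 0 reads at Day 8, these members could only stay or rise. The share of all genes with 0 reads at Day 8 that rose was not computed, and that library lacked reads of other well-expressed genes.

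The summed pro-survival amount per kilobase was divided by the summed pro-death amount. The ratio was 0.163 on Day 2, 0.145 on Day 8, 0.216 on Day 10, 0.252 on Day 13, 0.198 on Day 15, 0.181 in iPSCs and 0.182 in ESCs. It was lowest at Day 8, highest at Day 13, and alike in iPSCs and ESCs. Bax weighs most in the lower term. Against the BH3-only genes alone the ratio was 0.897 on Day 2, 0.563 on Day 8, 0.692 on Day 10, 0.826 on Day 13, 0.607 on Day 15, 0.626 in iPSCs and 0.815 in ESCs. That ratio was highest at Day 2 and lowest at Day 8, and it was higher in ESCs than in iPSCs. These are amounts of transcript, and protein was not measured.

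The genes of the caspase cascade differed most at the receptor end. Casp8, the initiator caspase of the death receptors (GRCm38 chromosome 1, 58795374 to 58847503), stood at 1978 normalized counts on Day 2, 978 on Day 8, 1463 on Day 10, 536 on Day 13, 219 on Day 15, 86.7 in iPSCs and 7.56 in ESCs. Apart from Day 10, which lay above Day 8, each library was below the one before, and only 7 reads remained in ESCs. iPSCs were 22.8-fold lower (16.5 to 32.5) than Day 2 and ESCs 11.5-fold lower (5.04 to 30.5) than iPSCs. Against Day 2, ESCs were 261-fold lower (127 to 651). Casp8 and Fas, partners at the receptor, thus both ended far below Day 2 in iPSCs and ESCs.

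Casp9, the initiator caspase of the mitochondrial route, stood at 1049.6 normalized counts on Day 2, 1021 on Day 8, 291 on Day 10, 755 on Day 13, 646 on Day 15, 949 in iPSCs and 951 in ESCs. Only Day 10 stood apart, 3.51-fold lower (3.12 to 3.94) than Day 8, and Day 13 was again 2.59-fold higher (2.29 to 2.94). Apaf1, the scaffold of the apoptosome, stood at 1028 normalized counts on Day 2, 387 on Day 8, 878 on Day 10, 1041 on Day 13, 819.7 on Day 15, 478 in iPSCs and 951 in ESCs. Day 8 and iPSCs were its lowest libraries, 2.66-fold lower (2.38 to 2.96) and 2.15-fold lower (1.85 to 2.51) than Day 2, and neither difference stays past 2-fold when libraries are scaled by total reads.

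iPSCs and ESCs were alike in most members. Of the 37 that could be compared, 31 lay within 2-fold. Most of all genes compared did so too (background 14.5% higher and 13.7% lower in ESCs). Gadd45g, Perp and Bcl2l11 were higher in ESCs and Gadd45a, Bok and Casp8 lower. Each of these 6 counting intervals excludes a ratio of 1, but the libraries are single, the iPSC library was the shallowest, and mitochondrial transcripts took 20.9% of the reads in ESCs against 2.79% in iPSCs. Scaled by total reads without the mitochondrial genome, 6 members were higher in ESCs (Mdm2, Bik and Apaf1 in addition) and 1 lower (Casp8).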

How the data were processed

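RNA was sequenced in 7 libraries, 1 per group, from cDNA made of 500 pg of RNA with the Nextera XT kit, per the labels' protocols. Per the submitters' processing notes, FastQC, STAR 2.5.3a and featureCounts were used with mm10 (GRCm38.p5). The annotation, strand setting and size-factor method are not given in the sources used here. The values deposited by the authors are log2 of normalized counts plus 1. Undoing the logarithm gave whole reads for 100% of the values within 0.01 reads.

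Differences of log2 values between libraries were taken in 7 main comparisons and, as a check of the end points, from Day 2 to Day 15 and to ESCs and from Day 15 to ESCs. Folds are ratios of normalized counts with 95% Clopper-Pearson intervals of the reads, and a library with 0 reads was set at 3. The labels name no molecular identifiers, so intervals and bounds cover counting error only. No test was run and no p-value is given. All members are described. Of 4 pathway lists, genes are named only if past 4-fold from Day 2 to Day 8 or to iPSCs, or between iPSCs and ESCs. Krt14, Pou5f1, Sox2, Col1a1, Lum and the copies of Bcl2a1b were named after their values were seen. One gene of these lists is not reported here. The members and lists were chosen with earlier results of these data known. Exon lengths and positions were those of GENCODE M21. The calculations, tested on simulated data, used Python 3.11.15. Alternatives were 2 scalings by total reads, filters at 4 and 8, reads required in both libraries, and other libraries in place of Days 2 and 8 and iPSCs.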

Additional observations from a re-analysis of the deposited data

How the results depend on the processing

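No paired analysis was possible because each group had 1 library. Scaling by total reads moved Day 8 minus Day 2 by 0.42 and iPSC minus Day 2 by 0.33 on the log2 scale (0.47 and 0.35 without the mitochondrial genome), and reversed no member past 2-fold. Of 80 recounted numbers of members past 2-fold, 66 stayed within 1.5 times. From Day 2 to Day 8, 8 members were higher under either scaling (10 lower) and 11 higher with Day 10 in place of Day 8, against 4. The 4 gained by scaling were Fas, Btg2, Ei24 and Bbc3, and the lower calls of Ccng1, Casp8 and Apaf1 were lost. From Day 8 to Day 10, 6 were higher with reads required in both libraries, against 12, and 10 lower with Day 2 in place of Day 8, against 6. From Day 13 to Day 15, 2 were higher with the filter at 8, against 4. From Day 15 to iPSCs, 2 were higher with the filter at 4 and 0 higher and 3 lower with it at 8, against 1 and 6, and 3 were higher with ESCs in place of iPSCs. Between ESCs and iPSCs, 6 were higher and 1 lower without the mitochondrial genome, and 5 lower with the filter at 4, against 3 and 3. From Day 2 to iPSCs, 8 were lower with Day 8 in place of Day 2, against 17. The substitutions for iPSCs, and of Day 8 for Day 2 against iPSCs, were chosen after seeing the data. The fewer calls at a filter of 8, or with reads required in both libraries, come from fewer genes compared. The cause of the other shifts was not tested.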

Other observations

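The apoptosis machinery beyond the members was also followed. Of 24 such genes in the table, all compared, 6 were higher and 9 lower in iPSCs than at Day 2 (median -0.13 on the log2 scale, 0.02 for all genes), with 28.7% of all genes higher and 29.8% lower. Tnfrsf1a, the main receptor of tumour necrosis factor, was 37.4-fold lower (30 to 47.3), and Cflar, which blocks caspase 8, was 13.3-fold lower (10.3 to 17.5). The necroptosis kinase gene Ripk3 was 7.53-fold lower (6.65 to 8.56) in iPSCs than at Day 2 and 8.18-fold lower (6.26 to 10.8) in ESCs than in iPSCs. Its executioner Mlkl had 860 reads at Day 2, 0 in iPSCs (at least 112-fold lower) and 195 in ESCs. All 12 fibroblast markers were also lower in iPSCs than at Day 2, and their part in these differences was not tested.

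Casp2 and Xiap had 1 and 54 reads at Day 8, against 270 and 1307 at Day 2 and 991 and 3016 at Day 10, so the Day 8 library again stood apart in single genes. Among 10 other Bcl2 relatives in the table, 7 could be compared between iPSCs and Day 2, of which 2 were higher and 3 lower against the same background. Bnip3, a gene of mitophagy induced by low oxygen, stood at 363 normalized counts on Day 2, 3688 on Day 8, 5585 on Day 10, 6921 on Day 13, 4399 on Day 15, 546 in iPSCs and 1224 in ESCs and was 10.2-fold higher (9.17 to 11.3) at Day 8 than at Day 2. It was high in the 4 sorted intermediates and low at both ends of the course.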
